A study of Mus musculus with 10 samples.

Results

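The genes described here are the receptor chains through which cells sense interferons and interleukin-10, together with the JAK kinases bound to those chains: Ifnar1, Ifnar2, Ifngr1, Ifngr2, Il10rb, Jak1, Jak2 and Tyk2. They were chosen by name, and each symbol was matched through the GRCm38 gene annotation to a single Ensembl gene, so that 8 of the 43629 genes in the count table were members. RNA was sequenced from the whole hippocampus of 10 mice, 1 library for each mouse, of which 5 were wild-type (WT) and 5 carried Dp1Tyb, the duplication Dp(16Lipi-Zbtb21)1TybEmcf. The strain label of both groups names C57BL/6J and 129P2, and all mice were 18 weeks old by their labels. The study's methods describe them as male littermates of a slightly higher age and name no treatment. By those methods, the mice had at least 10 generations of backcrossing to C57BL/6JNimr. Dp1Tyb mice are a model of Down syndrome that holds 3 copies, in place of 2, of the segment of mouse chromosome 16 from Lipi to Zbtb21 (GRCm38, chr16:75540514-97962622). It does not hold the orthologues of human chromosome 21 genes that lie on other mouse chromosomes, and the third copy is present in every cell. Ifnar1, Ifnar2, Ifngr2 and Il10rb lie in this segment, whereas Ifngr1, Jak1, Jak2 and Tyk2 lie on other chromosomes and stay in 2 copies. The comparison therefore asks how the transcripts of receptor chains in 3 copies, of their partner chain in 2 copies and of the shared kinases differ between Dp1Tyb and WT hippocampus.

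Interferon receptors are assembled from unlike chains, each of which carries a particular JAK kinase on its cytoplasmic tail. IFNAR1 with TYK2 and IFNAR2 with JAK1 form the receptor for type I interferons such as interferon-beta, whereas IFNGR1 with JAK1 and IFNGR2 with JAK2 form the receptor for interferon-gamma. IL10RB, with TYK2, is the shared second chain of the receptors for interleukin-10, interleukin-22 and the interferon-lambda family. Ligand binding brings the kinases together, the kinases phosphorylate STAT proteins, and the STATs switch on interferon-stimulated genes; in brain, microglia, astrocytes, neurons and vascular cells can all respond to interferons.

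Total counts in genes ranged from 18227684 to 43692270 per library, so that a count of 3 corresponded to between 0.0688 and 0.163 CPM (counts per 1000000 counts, after TMM scaling of the library). All 8 members passed the filter on low counts. Among markers of cell types, those of choroid plexus, the tissue that makes cerebrospinal fluid and that borders the hippocampus, set libraries apart. The summed level of the 8 markers, each detected in every sample, was 788 to 8090 CPM in WT and 186 to 5527 CPM in Dp1Tyb. The libraries with the lowest sums were Dp1Tyb 1 (186 CPM), Dp1Tyb 4 (209 CPM) and WT 2 (788 CPM). Markers of neurons summed to 5046 to 5363 CPM in WT and 5571 to 5805 CPM in Dp1Tyb, and those of astrocytes to 1259 to 1393 and 1412 to 1484 CPM, in each case without overlap of the genotypes, while microglia markers (255 to 290 and 206 to 272 CPM) and endothelial markers (209 to 230 and 202 to 212 CPM) overlapped. By the mean gene-centred log2 CPM of each list, neurons again did not overlap, but astrocytes did (WT 2 at 0.0152, Dp1Tyb 1 at 0.0150). All 6 neuron markers and all 5 astrocyte markers were detected in every sample, with 1 gene called in each of these lists. In bulk tissue, fewer cells of a type and less RNA per cell cannot be told apart.

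Of the 8 members, 2 were called higher in Dp1Tyb hippocampus, Ifnar1 and Ifngr2, and 0 were called lower (edgeR quasi-likelihood test, Benjamini-Hochberg adjusted p under 0.05 over 17237 tested genes). Of all tested genes, 1.11% were called, 0.87% higher and 0.238% lower. Of the 114 tested genes in the duplicated segment, 59.6% were called higher, with a median log2 fold change of 0.53, so the 2 of 4 duplicated members called stand beside a background in which most genes were called. Of the 4 members outside the segment, 0 were called and 1 (Jak1) had an unadjusted p under 0.05, as did 14.4% of all tested genes. DESeq2 called Jak1. Its calls were 1.75% (1.18% higher) of the 28977 genes given a p-value, of which some had no adjusted p and could not be called. Outside the segment, 0.718% of tested genes were called in either direction.

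**Figure D1:**
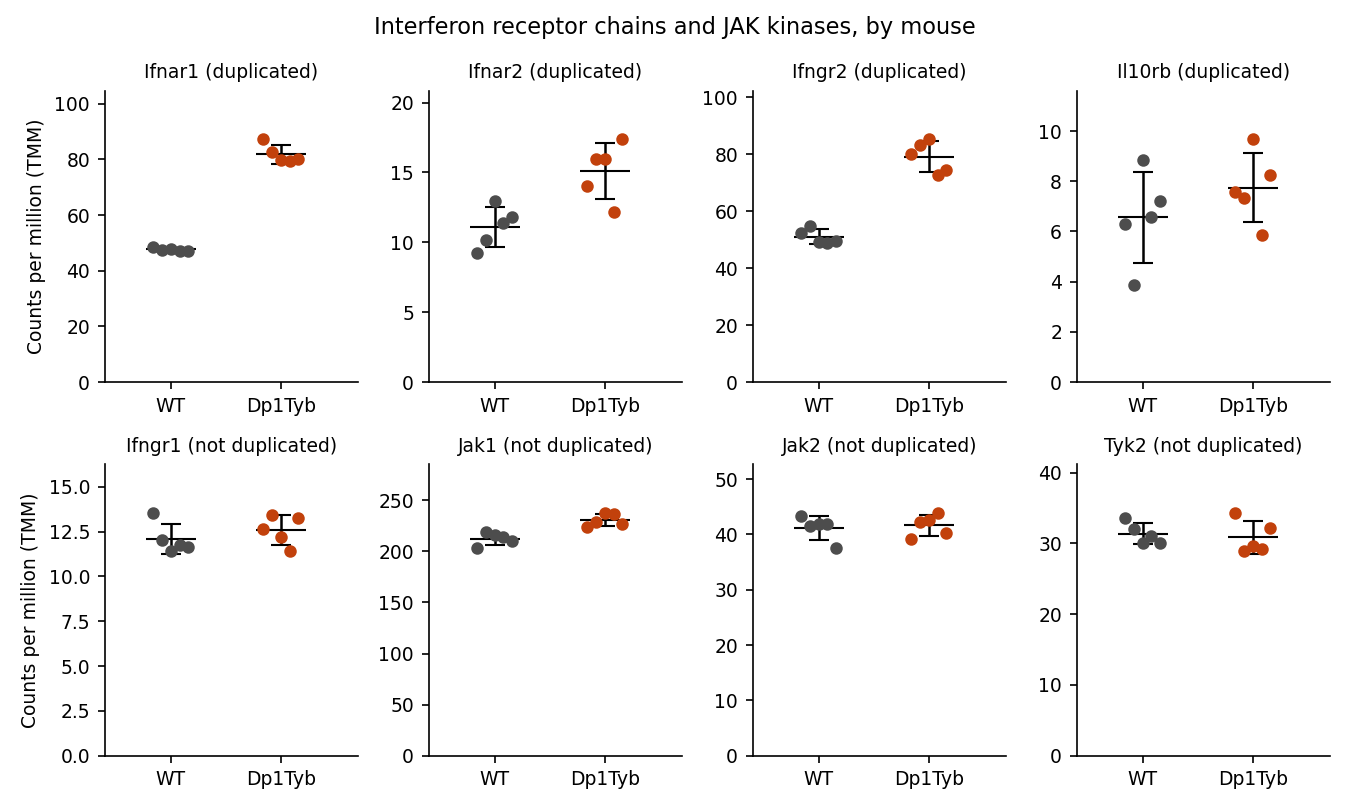
CPM of each member in each of the 10 mice (points; replicates 1 to 5 from left to right within a genotype), with the mean and SD of the 5 mice of each genotype (bars); every vertical axis starts at 0 and has its own scale. Ifnar1 and Ifngr2 show no overlap between genotypes, Ifnar2 and Il10rb overlap, and Jak1 shows a shift of 1.09-fold without overlap.

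The signal-transducing receptor chains for type I interferons lie near each other on chromosome 16. Ifnar1 (ENSMUSG00000022967, chr16:91485238-91507441, plus strand) had 48.7, 47.6, 47.9, 47.1 and 47.2 CPM in WT 1 to 5, and 87.3, 82.5, 79.9, 79.3 and 80.0 CPM in Dp1Tyb 1 to 5. Every Dp1Tyb library was far above every WT library, a separation seen in 62.3% of the tested genes of the segment, and the WT libraries were tightly grouped, with a coefficient of variation of 1.38%. Its mean rose from 47.7 ± 0.658 to 81.8 ± 3.30 CPM (SD, n = 5 each), 0.78 ± 0.038 (SE) on the log2 scale, or 1.72-fold with a 95% interval of 1.62 to 1.82 (edgeR adjusted p = 2.36e-07). That interval lies above 1.5-fold, the ratio of gene copies, and Ifnar1 ranked 14 of the 114 tested genes of the segment by log2 fold change.

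Ifnar2 (ENSMUSG00000022971, chr16:91372783-91405589, plus strand), the chain that binds type I interferon most tightly, had lower levels and more scatter. It had 9.23, 10.2, 13.0, 11.4 and 11.8 CPM in WT 1 to 5, and 14.0, 16.0, 16.0, 12.2 and 17.4 CPM in Dp1Tyb 1 to 5. In 4 of 5 Dp1Tyb mice the level was above all WT mice, and Dp1Tyb 4 lay below WT 3. The means were 11.1 ± 1.45 and 15.1 ± 2.03 CPM (SD, n = 5 each), a log2 fold change of 0.44 ± 0.11 (SE) with a 95% interval of 0.21 to 0.68, or 1.36-fold. It was not called by edgeR (adjusted p = 0.0744), although its unadjusted p passed 0.05. That interval holds 0.58, the log2 of 1.5, and lies above 0. The call turned on settings: adjusted p was 0.0349 without Dp1Tyb 4, 0.00573 with DESeq2, and between 0.00262 and 0.185 over all 18 alternatives, in which the log2 fold change ranged from 0.38 to 0.58. Dp1Tyb 4, the lowest Dp1Tyb library for Ifnar2, was also 1 of the libraries poorest in choroid plexus markers. With the choroid plexus marker score as a covariate the log2 fold change of Ifnar2 was 0.58 ± 0.088 (edgeR adjusted p = 0.00262). That score had a lower mean in Dp1Tyb (difference of -1.76 on the log2 scale, ranges overlapping), so the covariate is not independent of genotype. Without the 3 libraries lowest in these markers, a setting chosen after seeing the data, the log2 fold change was 0.54 ± 0.11 (adjusted p = 0.0457). In these fits 0.621% and 0.515% of all tested genes were called higher, and 60.5% and 55.3% of those in the segment.

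The promoters of these chains are shown because both genes lie in the duplicated segment but differed in level and in the precision of their change. Each sequence runs 5′ to 3′ on the gene's strand, from 250 bases before the RefSeq start to 50 bases after it (RefSeq, GRCm38.p6); capitals mark matches, on either strand, to the gamma-activated site TTCNNNGAA, the GC box GGGCGG or the ETS-family site CCGGAAG. Ifnar1 is at chr16:91484965-91485264 and Ifnar2 at chr16:91372533-91372832.
Ifnar1: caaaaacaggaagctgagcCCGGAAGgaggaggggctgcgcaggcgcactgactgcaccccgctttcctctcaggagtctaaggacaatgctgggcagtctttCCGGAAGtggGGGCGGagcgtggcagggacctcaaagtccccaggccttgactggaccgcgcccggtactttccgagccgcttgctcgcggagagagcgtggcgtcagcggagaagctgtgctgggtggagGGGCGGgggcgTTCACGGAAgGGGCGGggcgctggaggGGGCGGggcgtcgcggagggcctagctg
Ifnar2: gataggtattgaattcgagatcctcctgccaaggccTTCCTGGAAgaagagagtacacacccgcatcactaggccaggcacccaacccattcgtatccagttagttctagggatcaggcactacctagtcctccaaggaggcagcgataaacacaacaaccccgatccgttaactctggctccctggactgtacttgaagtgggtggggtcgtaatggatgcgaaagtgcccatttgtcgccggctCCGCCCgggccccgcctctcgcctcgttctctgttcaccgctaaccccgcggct
The Ifnar1 window held 4 GC boxes, 2 ETS-family sites and 1 gamma-activated site starting 5 bases before the RefSeq start, with 68.3% G+C and 26 CpG dinucleotides. The Ifnar2 window held 1 GC box and 1 gamma-activated site, with 57% G+C and 18 CpG. Over all 32851 promoter windows, 35.7% held a GC box, 8.86% an ETS-family site and 8.3% a gamma-activated site, and the medians were 52.7% G+C and 7 CpG. The interferon-stimulated response element, searched as GAAA repeated after any 2 bases (3.44% of all windows) and the TATA box TATAAA (13.6%) were not matched in either window.

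The receptor for interferon-gamma is made of a duplicated and a non-duplicated chain. Ifngr2 (ENSMUSG00000022965, chr16:91547072-91565623, plus strand), the signalling chain that carries JAK2, had 52.5, 54.9, 49.2, 49.0 and 49.4 CPM in WT 1 to 5, and 80.0, 83.4, 85.3, 72.7 and 74.4 CPM in Dp1Tyb 1 to 5. The lowest Dp1Tyb library was well above the highest WT library. Its mean rose from 51.0 ± 2.61 to 79.2 ± 5.49 CPM (SD, n = 5 each), 0.63 ± 0.053 (SE) on the log2 scale, or 1.55-fold with a 95% interval of 1.43 to 1.68 that holds 1.5-fold (edgeR adjusted p = 1.62e-05). Ifngr2 ranked 30 of 114 in the segment.

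Ifngr1 (ENSMUSG00000020009, chr10:19591949-19610229, plus strand), the chain that binds interferon-gamma and carries JAK1, had 13.6, 12.02, 11.4, 11.8 and 11.7 CPM in WT 1 to 5, and 12.6, 13.4, 12.2, 11.4 and 13.3 CPM in Dp1Tyb 1 to 5. The genotypes overlapped almost completely. The means of 12.1 ± 0.846 and 12.6 ± 0.826 CPM (SD, n = 5 each) gave a log2 fold change of 0.054 ± 0.072 (SE) with a 95% interval of -0.10 to 0.21, which does not reach 1.5-fold (edgeR adjusted p = 0.760).

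For the interferon-gamma receptor, the promoters are shown to set the duplicated chain beside its non-duplicated partner, with capitals and source as above. Ifngr2 is at chr16:91546809-91547108 and Ifngr1 at chr10:19591699-19591998.
Ifngr2: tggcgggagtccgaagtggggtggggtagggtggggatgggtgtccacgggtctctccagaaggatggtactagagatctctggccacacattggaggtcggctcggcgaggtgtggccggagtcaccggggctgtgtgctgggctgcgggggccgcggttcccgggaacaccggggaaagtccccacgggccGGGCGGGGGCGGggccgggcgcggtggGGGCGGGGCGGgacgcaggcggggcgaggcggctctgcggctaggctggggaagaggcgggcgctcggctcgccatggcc
Ifngr1: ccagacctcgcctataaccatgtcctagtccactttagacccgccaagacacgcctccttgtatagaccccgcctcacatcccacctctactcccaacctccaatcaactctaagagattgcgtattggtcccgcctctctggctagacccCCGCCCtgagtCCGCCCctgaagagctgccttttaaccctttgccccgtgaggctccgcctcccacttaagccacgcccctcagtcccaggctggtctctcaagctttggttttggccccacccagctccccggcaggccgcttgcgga
The Ifngr2 window held 4 GC boxes, of which neighbours adjoin or share a base, with 74.3% G+C and 31 CpG. In Ifngr1 there were 2 GC boxes on the opposite strand, with 60.3% G+C and 14 CpG. Neither window matched the gamma-activated site, the ETS-family site, the interferon-stimulated response element or the TATA box in these letters.

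Il10rb (ENSMUSG00000022969, chr16:91406164-91425834, plus strand) was the member with the lowest level and the least precise difference. It had 6.31, 3.87, 8.84, 6.57 and 7.23 CPM in WT 1 to 5, and 7.59, 7.35, 9.68, 5.88 and 8.26 CPM in Dp1Tyb 1 to 5, from counts of 93 to 331. Only Dp1Tyb 3 was above all WT mice, and Dp1Tyb 4 was below WT 1. The means were 6.56 ± 1.80 and 7.75 ± 1.38 CPM (SD, n = 5 each), with coefficients of variation of 27.4% and 17.9%. Its log2 fold change was 0.24 ± 0.18 (SE), or 1.18-fold with a 95% interval of 0.903 to 1.55, which holds both no change and 1.5-fold (edgeR adjusted p = 0.562), so at this spread the effect of the third copy could not be resolved. WT 2 and Dp1Tyb 4, the lowest libraries of their genotypes for Il10rb, were both among the 3 poorest in choroid plexus markers, whereas Dp1Tyb 1, the poorest of all, lay at 7.59 CPM. With the choroid plexus score as a covariate the log2 fold change was 0.47 ± 0.15 (adjusted p = 0.222), without the 3 poorest libraries it was 0.23 ± 0.14 (adjusted p = 0.574), without WT 2 alone 0.10 ± 0.14 and without Dp1Tyb 3 alone 0.15 ± 0.19. The 95% interval lay above 0 with the covariate (0.15 to 0.79), a score whose mean was itself lower in Dp1Tyb. Its upper end stopped short of 1.5-fold without the 3 poorest libraries (0.52), without WT 2 (0.41) and without Dp1Tyb 3 (0.56). This was also so without the filter on low counts and with a replicate block.

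**Figure D2:**
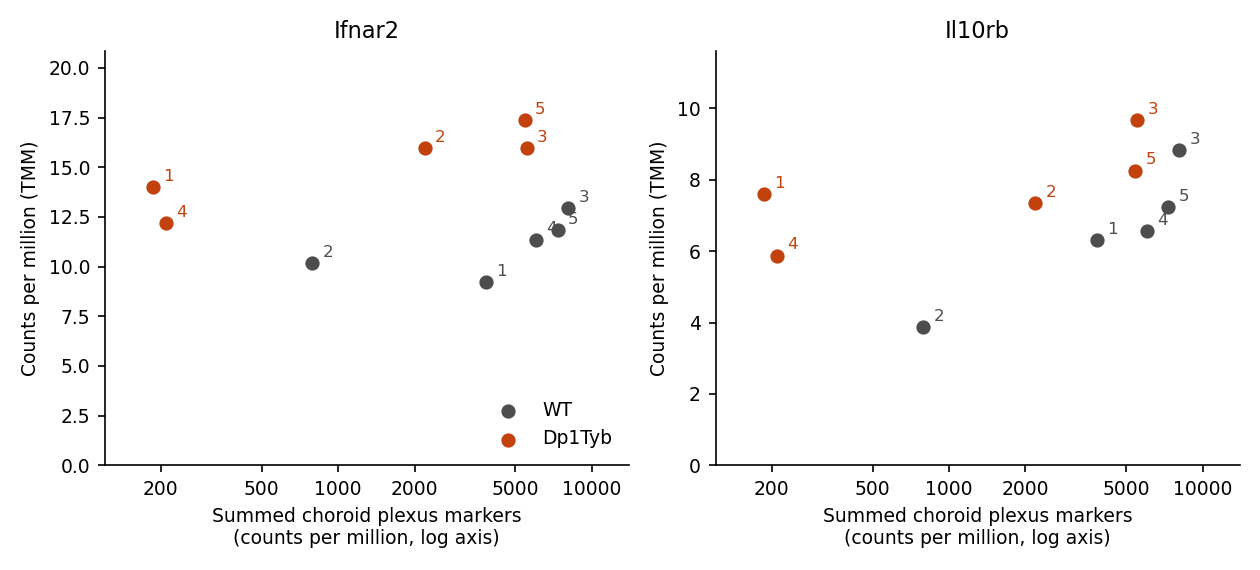
CPM of Ifnar2 (left) and Il10rb (right; both vertical axes from 0) against the summed CPM of the 8 choroid plexus markers (log axis) in each mouse, labelled with its replicate number. Dp1Tyb 1 (186 CPM of markers) and Dp1Tyb 4 (209) lie apart on the left. WT 2 (788) lies between them and Dp1Tyb 2 (2189), and the lowest Il10rb value, 3.87 CPM, is that of WT 2.

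The kinases differed between genotypes by little. Jak1 (ENSMUSG00000028530, chr4:101152367-101265282, minus strand), which serves IFNAR2, IFNGR1 and IL10RA, had 203.5, 218.7, 215.8, 214.0 and 209.7 CPM in WT 1 to 5, and 223.7, 229.1, 237.9, 236.3 and 226.9 CPM in Dp1Tyb 1 to 5. The lowest Dp1Tyb mouse was above the highest WT mouse, a separation in the higher direction seen in 2.56% of all tested genes and in 2.16% of those outside the segment. The means of 212 ± 5.90 and 231 ± 6.12 CPM (SD, n = 5 each) gave a log2 fold change of 0.12 ± 0.033 (SE), or 1.09-fold with a 95% interval of 1.04 to 1.14. It was not called by edgeR (adjusted p = 0.106) but was called by DESeq2 (0.12, adjusted p = 0.0241); over all 18 alternatives the log2 fold change ranged from 0.11 to 0.13 and the adjusted p from 0.0241 to 0.289. The summed levels of neuron and astrocyte markers, given above, were separated by genotype in the same direction as Jak1, although the mean log2 values of astrocyte markers overlapped. The part of these cell types in the Jak1 difference was not tested.

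Jak2 (ENSMUSG00000024789, chr19:29251828-29313080, plus strand), the partner of IFNGR2, ranged from 37.5 to 43.3 CPM in WT with a median of 41.8, and from 39.1 to 43.9 CPM in Dp1Tyb with a median of 42.2. Its log2 fold change was 0.014 ± 0.049 (SE), with a 95% interval of -0.093 to 0.12 (edgeR adjusted p = 0.923). Tyk2 (ENSMUSG00000032175, chr9:21104068-21131243, minus strand), the partner of IFNAR1 and IL10RB, ranged from 30.0 to 33.5 CPM in WT with a median of 31.1, and from 28.9 to 34.3 CPM in Dp1Tyb with a median of 29.6. Its log2 fold change was -0.023 ± 0.058 (SE), with a 95% interval of -0.15 to 0.10 (edgeR adjusted p = 0.886). Both genotypes overlapped for both kinases, and both intervals stop short of a 1.5-fold difference. The direction of these small values changed when single libraries were left out: Jak2 was -0.018 without WT 5 and -0.0094 without Dp1Tyb 4, and Tyk2 was 0.0030 without WT 1.

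**Figure D3:**
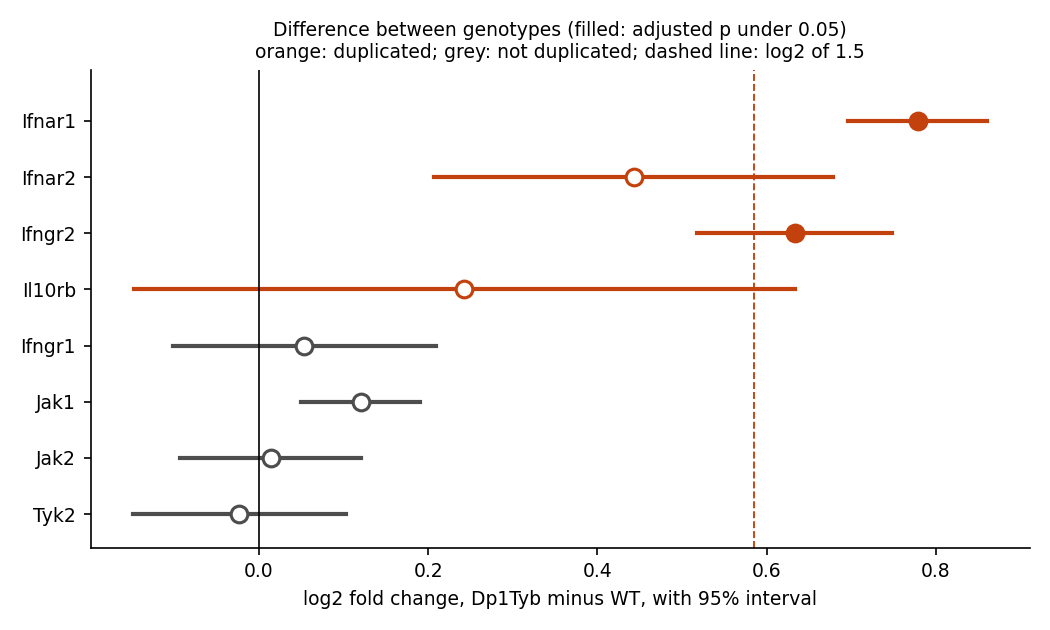
Log2 fold change of each member, Dp1Tyb minus WT, from the edgeR fit (points) with its 95% interval (lines); the solid vertical line marks no difference and the dashed line the log2 of 1.5. Filled points, Ifnar1 and Ifngr2, were called; the interval of Ifnar1 (1.62- to 1.82-fold) is the only one to the right of the dashed line.

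Because partner chains work as pairs, their balance was compared within each mouse as the difference in log2 CPM of 1 chain minus the other. The Ifngr2 to Ifngr1 difference was 1.95, 2.18, 2.10, 2.05 and 2.08 in WT 1 to 5 and 2.66, 2.63, 2.80, 2.67 and 2.48 in Dp1Tyb 1 to 5. Every Dp1Tyb mouse was above every WT mouse. The mean moved from 2.07 ± 0.086 to 2.65 ± 0.11 (SD, n = 5 each), a shift of 0.57 towards the duplicated chain (p = 0.00794 in a two-sided exact permutation test over mice, which cannot go lower with 5 against 5; adjusted over 3 ratios, p = 0.0238). Without the 3 libraries poorest in choroid plexus markers the shift was 0.59 and did not pass (exact permutation p = 0.0286, adjusted p = 0.0857). That p is the smallest that 4 against 3 allows, so this ratio could not pass alone after adjustment over 3 ratios, whatever its shift. For Ifnar2 minus Ifnar1, both duplicated, the values ran from -2.39 to -1.88 in WT and from -2.70 to -2.20 in Dp1Tyb, and the ranges overlapped. The mean moved from -2.10 ± 0.20 to -2.44 ± 0.21 (SD, n = 5 each), a difference of -0.34 that did not pass the test (exact permutation p = 0.0556, adjusted p = 0.0833); without WT 1 it was -0.41 with an adjusted p of 0.0357, and without the 3 libraries poorest in choroid plexus markers it was -0.22 with an adjusted p of 0.257.

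Il10rb was set beside Il10ra, the ligand-binding chain of the interleukin-10 receptor, which lies on chromosome 9 and had 4.77 ± 0.457 CPM (SD) in WT mice and 4.70 ± 0.391 CPM in Dp1Tyb mice (log2 fold change -0.020 ± 0.10, edgeR adjusted p = 0.948). The log2 difference ran from -0.42 to 0.79 in WT and from 0.47 to 0.93 in Dp1Tyb. The WT extreme of -0.42 was WT 2, and the shift of 0.29 did not pass the test (exact permutation p = 0.270, adjusted p = 0.270).

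**Figure D4:**
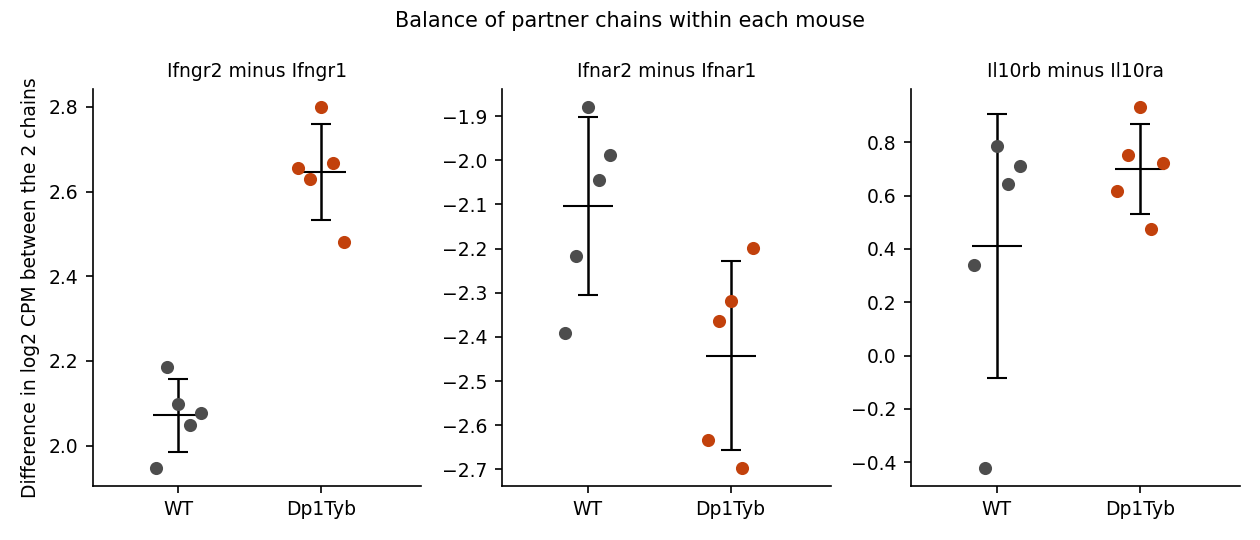
Difference in log2 CPM between partner chains in each mouse (points), with the mean and SD of the 5 mice of each genotype (bars); the 3 vertical axes have different ranges and do not start at 0. The Ifngr2 minus Ifngr1 difference does not overlap between genotypes (1.95 to 2.18 in WT, 2.48 to 2.80 in Dp1Tyb), and the others do.

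Levels of different genes were compared as RPKM, the CPM divided by the exon length in kilobases. In WT hippocampus Jak1 was highest at 29.4 ± 0.817 RPKM (SD, n = 5), followed by Ifngr2 (13.5 ± 0.694), Jak2 (8.19 ± 0.435), Ifnar1 (8.03 ± 0.111), Tyk2 (4.57 ± 0.216), Ifngr1 (4.25 ± 0.297), Ifnar2 (3.34 ± 0.435) and Il10rb (1.72 ± 0.472). The ranges of Jak2 and Ifnar1 overlapped, as did those of Tyk2 and Ifngr1. In Dp1Tyb the order was Jak1 (31.9 ± 0.847 RPKM), Ifngr2 (21.01 ± 1.46), Ifnar1 (13.8 ± 0.555), Jak2 (8.27 ± 0.381), Ifnar2 (4.53 ± 0.609), Tyk2 (4.50 ± 0.340), Ifngr1 (4.42 ± 0.290) and Il10rb (2.04 ± 0.364). Here the range of Ifnar1 (13.4 to 14.7 RPKM) was above that of Jak2 (7.77 to 8.73), and Ifnar2, Tyk2 and Ifngr1 could not be ranked, as neighbouring ranges overlapped. The order depended on the length used: per length of the longest transcript, Ifnar1 stood above Jak2 in both genotypes (12.2 RPKM in WT) and Ifnar2 stood below Ifngr1 in both.

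The duplicated members form a compact cluster of 192.8 kb. In order along the plus strand it holds Ifnar2, then Il10rb 574 bases after its end, Ifnar1 59403 bases further on and Ifngr2 another 39630 bases on. A predicted protein-coding gene, Gm21970, overlaps the exons of Ifnar2 by 315 bases and those of Il10rb by 569 bases on the same strand and was listed at 0 counts in every library. Reads in shared exons can be left uncounted as ambiguous, so the absolute levels of these members are uncertain. Tyk2 overlaps an antisense gene, 1700084C06Rik, by 554 exon bases, for which 2 to 13 counts were listed per library.

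Within 200 kb of the cluster, 12 other genes were tested, of which 7 were called higher and 0 lower, with a median log2 fold change of 0.51. The called neighbours all lay on the Ifngr2 side: Tmem50b (0.67 ± 0.041, SE), Dnajc28 (0.67 ± 0.068), Gart (0.62 ± 0.056), an enzyme of purine synthesis, Son (0.79 ± 0.056), a splicing cofactor, Donson (0.61 ± 0.083), Cryzl1 (0.53 ± 0.048) and Itsn1 (0.48 ± 0.043), an endocytic scaffold. Son, with 558 ± 22.7 CPM (SD) in WT mice and 968 ± 80.2 CPM in Dp1Tyb mice, was the largest of them and close in size to Ifnar1. On the Ifnar2 side, the oligodendrocyte transcription factors Olig2 (0.30 ± 0.070, edgeR adjusted p = 0.0618) and Olig1 (0.17 ± 0.11, adjusted p = 0.505) were not called. The remaining 3, A930006K02Rik (-0.0031 ± 0.31), Gm15964 (0.19 ± 0.25) and Gm10785 (0.38 ± 0.17), were not called, and each had a mean under 1.5 CPM in both genotypes. On opposite strands, Gm15964 overlaps Dnajc28 and Gart, Gm10785 overlaps Cryzl1, and Son overlaps Donson, and since the strand setting of the counting is not stated their values are uncertain.

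**Figure D5:**
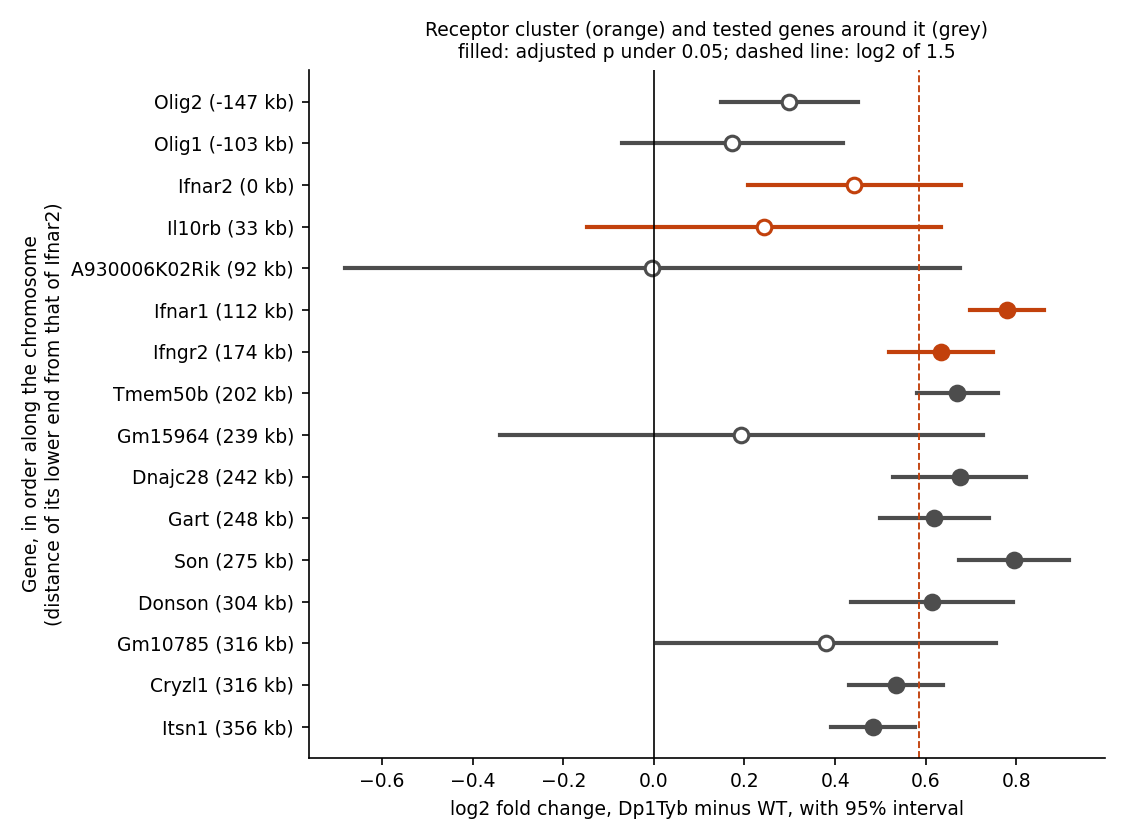
Log2 fold change, Dp1Tyb minus WT (points, with 95% interval), of the 4 clustered members (orange) and the 12 other tested genes within 200 kb (grey), in order along the chromosome from top to bottom. The 7 called neighbours (filled grey) lie after Ifngr2, with values from 0.48 to 0.79; the dashed line is the log2 of 1.5.

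The genes whose level followed a duplicated member most closely over the 10 samples were found by the root mean square difference of gene-centred log2 CPM. For Ifnar1 they were Zbtb21 (0.059), Cct8 (0.066) and C2cd2 (0.066), and for Ifngr2 they were Wrb (0.060), Jam2 (0.069) and Zbtb21 (0.082), all in the duplicated segment; Zbtb21 and C2cd2 overlap on the same strand. For Ifnar2 they were Sod1 (0.082) and Pigp (0.13), both in the segment, and Gm43302 (0.12) on chromosome 5. The nearest genes to Il10rb, Serpinb1a (0.15), Vangl1 (0.17) and Trim21 (0.18), were further away than those of the other members, and all 3 lie outside the segment. These values are descriptions over samples that share the genotype difference.

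Transcripts of the ligands were almost absent. None of the 26 ligand genes passed the filter, 16 had no count in any library, Ifnb1 (interferon-beta) among them, and Ifng (interferon-gamma) had at most 2 counts in a library. Il10 reached 11 counts and Il24 19 counts at most, so differences between genotypes in ligand RNA were not detectable at this depth. Among the other chains of the same receptor family, 4 of 7 were tested and 0 were called, with a median log2 fold change of -0.16. Of those that pair with IL10RB, Il10ra is given above and the others were sparse: Ifnlr1 was at 0.496 ± 0.0377 CPM (SD) in WT mice and 0.381 ± 0.158 CPM in Dp1Tyb mice (log2 fold change -0.38 ± 0.31, edgeR adjusted p = 0.605), and Il20ra and Il22ra1 had at most 7 and 4 counts. Il20rb, which pairs with other chains, differed by -0.26 ± 0.16 on the log2 scale (SE; edgeR adjusted p = 0.465).

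Of 22 other receptors that signal through JAK kinases, 20 were tested and 0 were called by edgeR, with a median log2 fold change of -0.031. At an unadjusted p under 0.05, 3 were lower and 0 higher, beside 1104 lower and 1373 higher among all 17237 tested genes. DESeq2 called 2 lower, beside 165 lower among all 28977 genes given a p-value. Those 2, named after their values were seen, were Il6ra, the interleukin-6 binding chain (-0.41 ± 0.11, edgeR adjusted p = 0.101), and Csf2ra, a chain of the GM-CSF receptor (-0.27 ± 0.083, edgeR adjusted p = 0.159). The largest values in this list were those of Prlr, the prolactin receptor (-0.93 ± 0.64, SE, edgeR adjusted p = 0.533), at 48.5 ± 29.5 CPM (SD) in WT mice and 26.0 ± 22.0 CPM in Dp1Tyb mice, and Lepr, the leptin receptor (-0.41 ± 0.42, adjusted p = 0.681). Choroid plexus markers had a lower mean score in Dp1Tyb, with a difference of -1.76 on the log2 scale, and their part in the values of Prlr and Lepr was not tested.

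Downstream of the receptors, 0 of the 9 tested genes among Jak3, the STATs, Irf1 and Irf9 were called by edgeR or DESeq2, and 0 had an unadjusted p under 0.05 (median log2 fold change 0.011). Stat2 (-0.045 ± 0.072, SE) and Irf9 (0.018 ± 0.078), whose products act downstream of the type I interferon receptor, were both within 1 SE of no change. Jak3, the kinase of lymphoid cytokine receptors, was at -0.17 ± 0.13 and Stat5a at -0.33 ± 0.16. All 20 negative regulators were tested and 0 were called by edgeR or DESeq2. At an unadjusted p under 0.05, 1 was lower (Ptpn1, -0.085 ± 0.037, named after its value was seen) and 0 higher, beside 14.4% of all tested genes in either direction. Usp18, which blocks JAK1 at IFNAR2, was at 0.25 ± 0.14 (edgeR adjusted p = 0.438), Socs3 at -0.32 ± 0.18 (adjusted p = 0.442) and Socs1 at -0.12 ± 0.39 (adjusted p = 0.919).

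Of the 32 interferon-stimulated genes listed outside the segment, all were tested and 0 were called by edgeR, whereas DESeq2 called 1 (Gbp3). Their median log2 fold change was 0.20, with 26 above 0 and 6 below. Over all 17237 tested genes the median was -0.0041, with 8395 above 0 and 8842 below. At an unadjusted p under 0.05, 8 of the 32 were higher and 1 lower, beside 1373 higher and 1104 lower of all tested genes (14.4% in either direction). Gbp3, a guanylate-binding protein, ran from 2.95 to 5.036 CPM in WT and from 5.039 to 6.08 CPM in Dp1Tyb. The genotypes just failed to overlap, a separation in the higher direction seen in 2.16% of tested genes outside the segment. Ifit3, named after its values were seen, also just failed to overlap (at most 4.197 CPM in WT, at least 4.199 CPM in Dp1Tyb). For Gbp3 the log2 fold change was 0.48 ± 0.13 (SE, edgeR adjusted p = 0.111, DESeq2 adjusted p = 0.0252). Ifi35 was the largest in the other direction (-0.49 ± 0.20, edgeR adjusted p = 0.298). Inside the segment, Mx2 rose from 0.889 ± 0.261 to 1.84 ± 0.121 CPM (SD, n = 5 each; log2 fold change 1.06 ± 0.18, edgeR adjusted p = 0.0117), from counts of 14 to 76, and was not called without the 3 libraries poorest in choroid plexus markers (0.92 ± 0.22, adjusted p = 0.124). Mx1, beside it, was at 0.086 ± 0.32 (adjusted p = 0.927) from counts of 4 to 18.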

How the data were processed

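Hippocampal poly(A) RNA was sequenced with a stranded kit. The authors trimmed reads with TrimGalore, aligned them to GRCm38 with TopHat 2.0.12, discarded reads with several alignments and made whole-number counts per Ensembl gene with htseq-count; these deposited counts were used. The strand setting and the annotation release are not given in the sources used here, so genes that overlap another gene are uncertain. A deposited table of normalized values and the authors' own DESeq2 comparison (fold changes and p-values) were not used.

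Genotypes were compared with edgeR 4.0.16 in R 4.3.3 (TMM, filterByExpr, quasi-likelihood F-test, all 10 samples, no covariate, 17237 of 43629 genes tested, Benjamini-Hochberg, called at adjusted p under 0.05), with DESeq2 1.42.0 as an alternative. CPM and RPKM used TMM library sizes and exon unions of GENCODE M21, which matched 42462 genes. Chain ratios used log2 CPM with a prior count of 2. Promoter windows, from RefSeq GRCm38.p6, were held for 7 of the 8 members. On simulated counts, 63% of 200 genes changed 1.5-fold were recovered, with 3.1% false calls. The changed genes were drawn from those with a mean count of at least 10. Each gene was simulated independently, so variation shared between genes, such as that of choroid plexus markers, was not included. All 45 pairs of libraries differed beyond sampling noise (smallest chi-square per degree of freedom 4.678). The labels give no batch or date, so no within-batch comparison could be made.

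The members and all lists were chosen with earlier results of these data known. Named were all members; from each list, called genes, the 2 largest fold changes and direct partners of members; tested genes within 200 kb of the cluster; and the 3 genes closest in pattern to each duplicated member. Not every gene that this rule names is reported here. Alternatives were DESeq2, RLE size factors, other filters on low counts, TMM without duplicated genes, a replicate block, the choroid plexus score as a covariate, other gene lengths and leaving out each library.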

Additional observations from a re-analysis of the deposited data

Results flagged for a closer look

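Of 42 groups of 5 values examined, 2 held a sample that stood far from the others by Dixon's criterion, where chance gives about 1 in 20 groups, or 2.1. Ifngr1 in WT 1 was at 13.6 CPM, while the other WT mice had 11.4 to 12.02 CPM. The microglia marker score of Dp1Tyb 3 was -0.311 on the log2 scale, while the other Dp1Tyb mice had -0.0069 to 0.050.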

How the results depend on the processing

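Ifnar1 (0.75 to 0.79) and Ifngr2 (0.60 to 0.69) were called in all 18 alternatives, and the interval of Ifnar1 stayed above 1.5-fold in each. Members called higher numbered 2 to 3 with single libraries left out and 4 with DESeq2 (Ifnar1, Ifnar2, Ifngr2 and Jak1); 0 were called lower in any alternative. Ifnar2 became a call with DESeq2 (log2 fold change 0.44), without the filter on low counts (0.45), with a replicate block (0.44), with the choroid plexus covariate (0.58) and without the 3 libraries poorest in choroid plexus markers (0.54), and ranged from 0.38 to 0.51 with single libraries left out. Jak1 became a call with DESeq2 (0.12). Il10rb ranged from 0.10 to 0.47 and was never called. With single libraries left out, Tyk2 ranged from -0.066 to 0.0030, changing sign without WT 1, and Jak2 from -0.018 to 0.037, changing sign without WT 5 and without Dp1Tyb 4 (-0.0094). The causes were not tested.

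The 191 genes called became 507 with DESeq2, 315 with the replicate block, 108 without the 3 choroid-poor libraries and 105 to 218 with single libraries left out (105 without WT 4 and without Dp1Tyb 2, 111 without Dp1Tyb 3, 127 without WT 5). Pathway genes called higher numbered 1, but 2 with DESeq2 and 0 without the choroid-poor libraries; those called lower numbered 0, but 2 with DESeq2, 1 with the block (Csf2ra) and 0 to 1 with single libraries left out (Il6ra without WT 2).

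Same-number correlations of the samples were 0.22, -0.027, 0.21, -0.069 and 0.28, and only WT 1 correlated best with its own number. With so few values, these do not settle whether the replicate numbers pair the samples. The Ifngr2 minus Ifngr1 shift was 0.57 with the block (exact p = 0.0625, the smallest 5 pairs allow; adjusted p = 0.0938) and 0.59 without the choroid-poor libraries (exact p = 0.0286, the smallest 4 against 3 allow; adjusted p = 0.0857), and 0.54 to 0.62 with single libraries left out. With single libraries left out, Ifnar2 minus Ifnar1 was -0.41 to -0.27 and Il10rb minus Il10ra 0.079 to 0.38; without the choroid-poor libraries, Ifnar2 minus Ifnar1 was -0.22 (exact p = 0.200, adjusted p = 0.257). Per longest transcript, 5 of 8 members' RPKM moved by more than 1 SD. Il10rb, from 93 to 331 counts, had an SE of 0.18, and the ligands were too sparse to test.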

Other observations

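Markers of other cell types gave summed levels that overlapped between genotypes: oligodendrocytes (3916 to 4977 CPM in WT, 3846 to 5226 CPM in Dp1Tyb), oligodendrocyte precursors (82.3 to 96.3 and 80.7 to 91.6 CPM), hippocampal fields (773 to 900 and 783 to 876 CPM), erythroid cells (43.0 to 93.2 and 33.4 to 67.1 CPM) and lymphocytes (0.746 to 1.46 and 0.760 to 3.42 CPM).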
